A study of Mus musculus with 12 samples.

Results

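The genes described here are 37 p53 targets and apoptosis regulators, taken by name from a mouse expression array. They cover p53 itself (Trp53), its inhibitor gene Mdm2, and genes grouped here under cell cycle arrest, stress metabolism and DNA repair. They also cover the receptors, BCL2 family proteins and caspases of cell death. Each gene is represented by its brightest probe, and 32 of the 37 passed the detection filter, among 10597 genes tested on the array. No probe of Bcl2, Btg2, Fas, Perp or Xiap passed it, and the brightest probe of each was detected on 0 of 12 arrays.

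RNA came from XEN cells, stem cells derived from the extraembryonic endoderm of the mouse blastocyst, in a single line that carries a GFP reporter driven by the Afp gene. All groups carry the reporter and were grown in N2B27, a defined medium. There were 4 groups of 3 arrays: cells without treatment, BMP4-treated cells left unsorted, and the Afp::GFP positive and the Afp::GFP negative fraction flow sorted after BMP4. The labels do not state how much BMP4 was used, for how long, or whether replicates were separate cultures, so each p-value measures the spread between these arrays, which may be technical.

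The median probe read 53.4 to 60.9 on arrays of unsorted cells and 22.6 to 32.4 on those of sorted cells, with 13105 to 14737 of 45281 probes detected per array. All 7 XEN and primitive endoderm markers, Gata4, Gata6, Sox7, Sox17, Pdgfra, Dab2 and Foxa2, were detected in every group. None of 6 fibroblast and none of 6 mesoderm, blood and endothelium markers was detected on any array. Of 5 trophoblast markers only Cdx2 was detected, in unsorted BMP4 cells, and of 6 pluripotency markers Pou5f1, Nanog, Esrrb and Tdgf1 were detected on 0 arrays, Sox2 on 1 and Zfp42 on 12. The arrays measure bulk RNA, so fewer cells of a kind and less RNA per cell cannot be told apart. Precision is limited by the 3 arrays per group. Values are log2 normalized signal, groups are given as mean ± SD over n = 3 arrays, and differences are log2 ± SE from limma.

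p53 is a transcription factor that is held low by the ubiquitin ligase MDM2 and is stabilised after DNA damage and other stress. It then binds paired short sites in DNA and raises genes that stop the cell cycle, repair DNA or, through BH3-only proteins, open the mitochondrial outer membrane by way of BAX and BAK. Cytochrome c that leaks out assembles APAF1 and caspase 9, while BCL2, BCL-XL and MCL1 oppose the process and BMP signalling, through SMAD proteins, controls differentiation of the endoderm around the embryo.

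The promoter windows of the members, 250 bases before to 50 after a RefSeq gene start (GRCm38.p6), were searched for the p53 response element, the paired sites that p53 binds. A match was 2 adjoining decamers of 10 bases with at most 3 mismatches to the p53 consensus, in which each decamer kept its core letters CNNG. The consensus reads the same on both strands. Of 37 members, 29 had at least 1 window, 42 windows in all, and 8 of the 42 held a match, against 1.38% of all 32851 windows. The 8 windows belong to 7 genes, as the same match of Aen lies in 2 of them. The members were chosen by name as p53 targets and apoptosis regulators, so these shares describe the list and do not test it. In 3 of the 42 windows, 1 each of Cdkn1a, Ccng1 and Gtse1, the match had 1 mismatch, and 0.067% of all windows held one with at most 1. The matches of Cdkn1a and Ccng1, which both fell after BMP4, are shown in capitals within the 250 bases before the start. Those of the others, some of which also fell, are shown with 20 flanking bases or alone. A match is a description of the letters, and binding was not measured.
Cdkn1a, chr17:29090729-29090978, + strand, match 51 bases before 1 of 2 starts: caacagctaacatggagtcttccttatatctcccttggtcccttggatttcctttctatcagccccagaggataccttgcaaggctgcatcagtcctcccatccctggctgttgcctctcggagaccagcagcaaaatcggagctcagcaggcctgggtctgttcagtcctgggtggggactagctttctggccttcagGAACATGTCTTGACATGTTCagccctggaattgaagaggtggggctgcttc
Ccng1, chr11:40755287-40755536, - strand, match 195 bases before the start: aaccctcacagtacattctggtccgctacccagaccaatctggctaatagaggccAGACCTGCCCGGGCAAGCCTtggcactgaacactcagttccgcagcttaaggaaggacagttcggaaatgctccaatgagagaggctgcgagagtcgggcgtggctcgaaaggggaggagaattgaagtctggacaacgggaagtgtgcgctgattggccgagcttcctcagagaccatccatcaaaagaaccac
Gtse1, chr15:85859945-85859964, + strand, match from 1 base before 1 of 2 starts: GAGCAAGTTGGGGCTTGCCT
Sesn1, chr10:41887246-41887305, + strand, match 173 bases before 1 of 2 starts: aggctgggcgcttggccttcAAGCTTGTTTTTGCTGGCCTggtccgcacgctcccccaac
Aen, chr7:78895937-78895956, + strand, match 121 bases before 1 of 2 starts and after the other: GGGCTTGTCCGGGCAAGGAG
Bbc3, chr7:16309466-16309525, + strand, match 97 bases before 1 of 3 starts: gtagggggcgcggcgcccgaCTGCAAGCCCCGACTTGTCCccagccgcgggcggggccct
Trp53, chr11:69580264-69580323, + strand, match 75 bases before the start: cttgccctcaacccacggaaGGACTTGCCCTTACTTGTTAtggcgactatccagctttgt
Of these 7 genes, Cdkn1a, Ccng1, Sesn1 and Aen fell after BMP4, Gtse1 and Bbc3 rose, and Trp53 did not pass, with values below.

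The first comparison asked how BMP4 changed these genes in unsorted XEN cells. Several classical p53 targets were lower after BMP4, led by Plk2 (3.35-fold lower), Sesn1 (2.55-fold) and Zmat3 (1.87-fold), with Cdkn1a, the gene of the CDK inhibitor p21, 1.53-fold lower. Others were higher, led by Gadd45a (3.44-fold) and Plk3 (2.06-fold), and the message of p53 itself did not pass. Among apoptosis genes, the death-promoting Bcl2l11 and the survival gene Bcl2l1 both fell, while Bid and Casp8 rose. Of 32 members tested, 8 rose and 13 fell at an adjusted p under 0.05. That is 25.0% higher and 40.6% lower, against 30.2% higher and 28.7% lower of all 10597 genes. The 65.6% called in either direction stand beside 58.9% of all genes. The 13 include Aen and Pmaip1, which at most 1 BMP4 array detected and which met the filter through untreated arrays. The median difference of the members was -0.09 and that of all genes 0.03. The groups' arrays did not overlap for 22 of the 32 members, and for 61.3% of all genes. Cell type markers and stress genes moved in the same comparison. Of 8 visceral endoderm markers 7 rose and 1 fell, and their summed signal was 13398 to 13796 untreated and 22924 to 24012 after BMP4. Of 5 parietal endoderm markers 4 fell and 0 rose (88095 to 100522 and 65213 to 67550), and of 7 XEN markers 4 fell and 1 rose (31334 to 31725 and 24566 to 26174). Of 10 immediate early and stress genes tested 6 fell and 3 rose. The summed signal of all 12 genes of that list, 2 of them undetected, was 2241 to 2331 and 2031 to 2184. Their part in the members' differences was not tested.

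**Figure D1:**
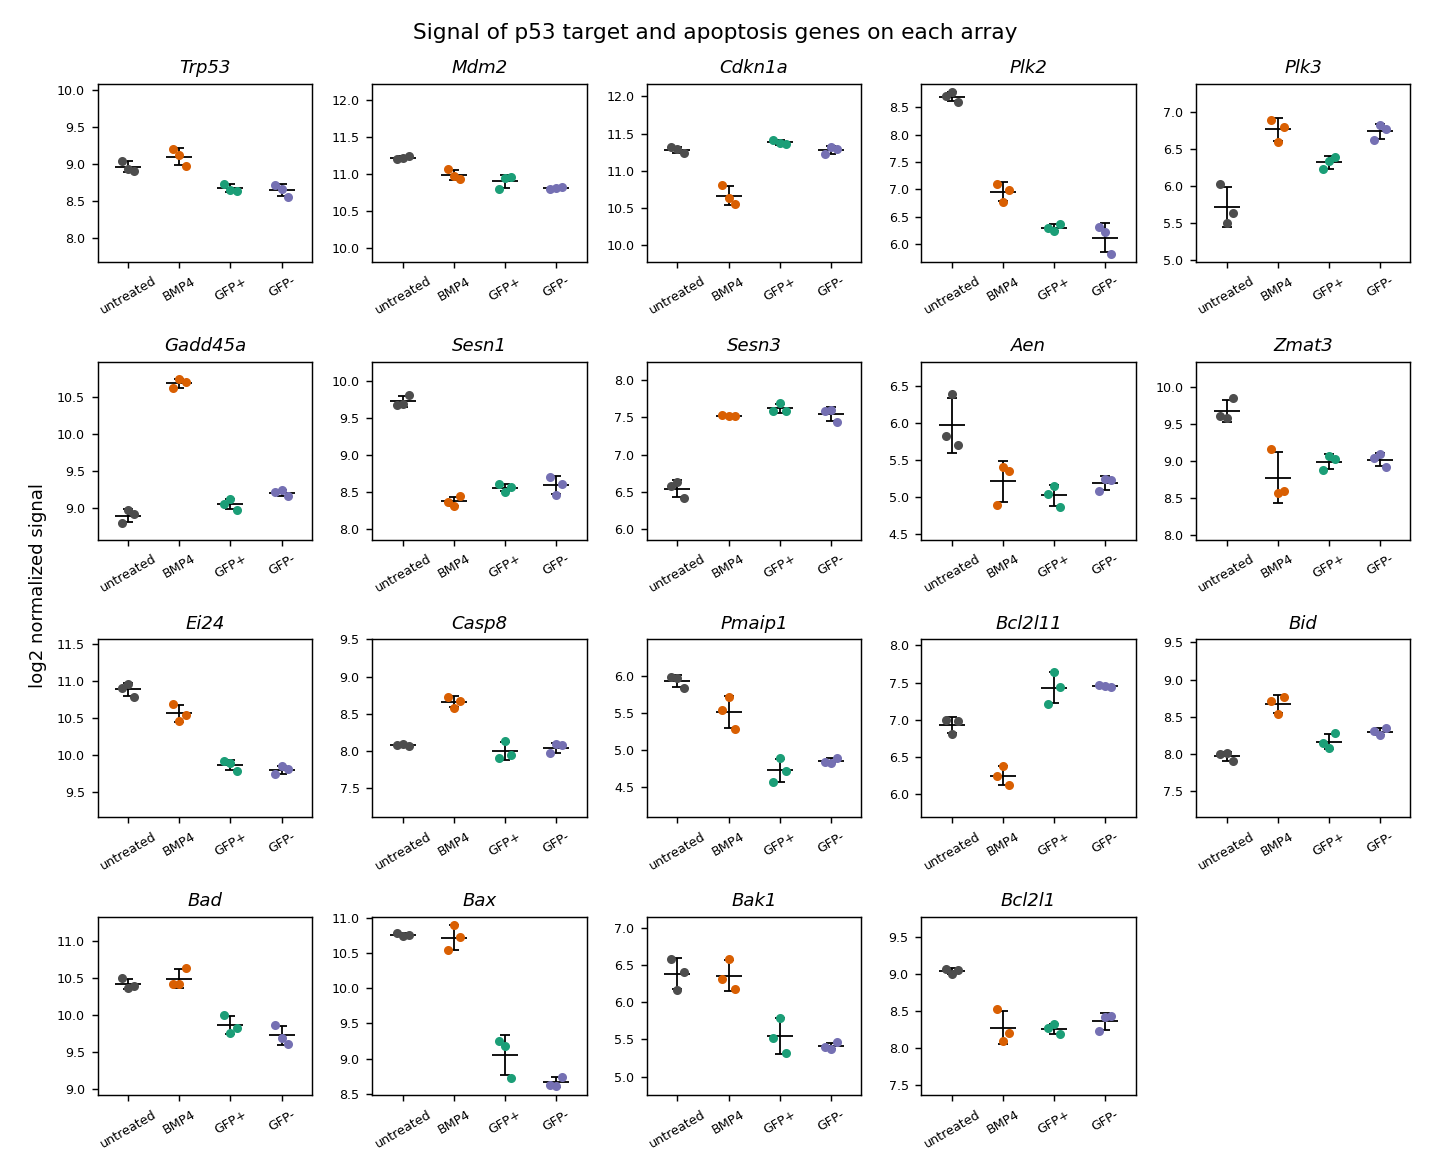
Log2 normalized signal (vertical axis, with its own range in each panel) of 19 members on each of 12 arrays, by group (GFP+ and GFP-, sorted fractions). Points are arrays, lines and bars are mean ± SD of 3 arrays: Plk2 and Sesn1 fall from untreated to BMP4 and stay low in both fractions, while Gadd45a is high in unsorted BMP4 cells alone.

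Trp53 read 9.04, 8.93 and 8.91 in untreated cells and 9.20, 9.11 and 8.98 after BMP4. The ranges overlap and the difference of 0.13 ± 0.08 did not pass (adjusted p = 0.154). Mdm2, both a target and the main inhibitor of p53, read 11.20, 11.22 and 11.24 untreated and 11.06, 10.97 and 10.92 after BMP4. Every BMP4 array lay below every untreated one, by a small difference of -0.23 ± 0.07 (adjusted p = 0.00972). The second kept probe of Mdm2 gave -0.15 and did not pass (adjusted p = 0.0994, here and for other single probes over all 15448 kept probes).

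Of 6 measured members grouped under cell cycle arrest, Plk2, Ccng1 and Cdkn1a fell and Gadd45a, Plk3 and Gtse1 rose. The arrays did not overlap for any of them. Of all genes, 30.2% rose and 28.7% fell, and for 61.3% the arrays did not overlap. The even split depends on placing Gtse1, a gene of S and G2 phase whose protein restrains p53, among the arrest genes. Cdkn1a read 11.31, 11.30 and 11.24 untreated and 10.81, 10.62 and 10.56 after BMP4, a difference of -0.62 ± 0.07 (adjusted p = 9.56e-06). All 3 of its kept probes were lower, by -0.62, -0.56 and -0.47. Plk2, a polo-like kinase gene induced by stress, read 8.71, 8.78 and 8.60 untreated and 7.11, 6.77 and 7.00 after BMP4, a difference of -1.74 ± 0.12 (adjusted p = 4.30e-08). Among members that fell, this was the largest difference. Ccng1, which encodes cyclin G1, a partner of the phosphatase PP2A in the regulation of MDM2, went from 11.84 ± 0.09 to 11.19 ± 0.18. Its difference of -0.65 ± 0.10 on the brightest probe was larger than on the other 2 kept probes, which gave -0.21 and -0.23.

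Gadd45a, a growth arrest and DNA damage gene, read 8.80, 8.97 and 8.91 untreated and 10.61, 10.74 and 10.69 after BMP4. The groups were well apart, with a difference of 1.78 ± 0.07 (adjusted p = 1.97e-10), and its second probe gave 1.61. Plk3, the paralogue of Plk2, moved the other way from it: 6.02, 5.50 and 5.64 untreated, where 2 of 3 arrays detected it, and 6.89, 6.60 and 6.80 after BMP4 (1.04 ± 0.12, adjusted p = 7.47e-06). Gtse1, a gene expressed in S and G2 phase whose protein binds and restrains p53, rose from 9.93 ± 0.11 to 10.46 ± 0.07. Proliferation genes moved with these: 9 of 10, among them Aurkb, Bub1b, Pcna and Cdk1, rose after BMP4 with a list median of 0.67. Of all genes 30.2% rose, with a median of 0.03. The summed signal of those 10 genes was 12022 to 13629 untreated and 19650 to 21452 after BMP4, and their part in the lower Cdkn1a or the higher Gtse1 was not tested.

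Of 7 measured members grouped under stress metabolism, 5 fell and 1 rose, while 28.7% of all genes fell and 30.2% rose. The label is loose, since the group also holds genes of other functions, named below. Sesn1, a sestrin gene of the p53 response whose protein limits the growth kinase complex mTORC1, read 9.67, 9.69 and 9.81 untreated and 8.36, 8.31 and 8.44 after BMP4. All BMP4 arrays lay more than 1 log2 unit below all untreated arrays (-1.35 ± 0.08, adjusted p = 7.77e-09). Its relative Sesn3, better known as a target of FOXO factors, went the opposite way, from 6.58, 6.63 and 6.41 to 7.53, 7.52 and 7.52 (0.98 ± 0.08, adjusted p = 1.44e-07). The sestrin pair thus differed in direction with no overlap in either gene.

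Zmat3, an RNA-binding zinc finger gene, read 9.61, 9.58 and 9.85 untreated and 9.17, 8.57 and 8.59 after BMP4, with BMP4 replicate 1 the closest to the untreated arrays (-0.90 ± 0.14, adjusted p = 8.83e-05). Aen, the apoptosis-enhancing nuclease gene, read 5.82, 6.39 and 5.70 untreated and 4.90, 5.40 and 5.35 after BMP4. Aen was detected on every untreated array and on no other, so it passed the filter only through the group where it was high. Its fall is given as a bound, at least 1.31-fold. Its limma p-value (adjusted p = 0.0016) is not independent of that filter. Ei24, which encodes a membrane protein of the endoplasmic reticulum, read 10.91, 10.97 and 10.79 untreated and 10.69, 10.46 and 10.54 after BMP4 (-0.32 ± 0.08, adjusted p = 0.00325). Its second probe gave -0.08 (adjusted p = 0.554), and with the mean of both probes the call was lost (adjusted p = 0.0664, the values spanning 0.00121 to 0.0664).

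Trp53inp1, a p53-induced nuclear protein gene of autophagy, fell by a log2 difference of -0.33 ± 0.12 with overlapping arrays (adjusted p = 0.0355). Leaving out untreated replicate 1 (adjusted p = 0.125) or 3 (adjusted p = 0.0949) ended the call, as did leaving out BMP4 replicate 2 (adjusted p = 0.106) or 3 (adjusted p = 0.140). The values spanned 0.00472 to 0.140 over the alternatives other than single probes. Phlda3, an inhibitor of AKT, differed by -0.17 ± 0.09 and did not pass (adjusted p = 0.135), although its dimmer probe gave -0.46 (adjusted p = 0.00273).

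Of 4 DNA repair genes, 1 rose and 1 fell, beside 30.2% and 28.7% of all genes. Ddb2, which recognises ultraviolet damage for nucleotide excision repair, rose from 7.99 ± 0.05 to 8.63 ± 0.14 (0.64 ± 0.09), and its 4 kept probes gave 0.57 to 0.73. Rrm2b, the p53-induced subunit of ribonucleotide reductase, fell from 6.95 ± 0.06 to 6.37 ± 0.12 (-0.58 ± 0.09). Xpc, another damage sensor of excision repair (0.15 ± 0.08, adjusted p = 0.127), and Polk, a translesion polymerase gene (-0.13 ± 0.08, adjusted p = 0.186), did not pass. Without untreated replicate 2, Xpc passed (adjusted p = 0.0233).

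In the death receptor arm, Casp8, the initiator caspase gene, read 8.08, 8.09 and 8.06 untreated and 8.72, 8.58 and 8.67 after BMP4. The untreated arrays lay within 0.1 of each other and the rise of 0.58 ± 0.08 passed (adjusted p = 2.24e-05). The death receptor gene Tnfrsf10b was lower on every BMP4 array, 7.81 ± 0.12 against 8.18 ± 0.07, and did not pass (adjusted p = 0.0882, 0.00253 to 0.221 over the alternatives other than single probes). It passed without GFP positive replicate 3 (adjusted p = 0.00253), an array that enters this comparison only through the shared spread, and with the compared groups alone (adjusted p = 0.00674). The mean of its kept probes passed too (adjusted p = 0.00956), as did the fit under scale normalization (adjusted p = 0.0320), an offset of 50 (adjusted p = 0.0414) or no background correction (adjusted p = 0.0405). Fas was not detected on any array.

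BH3-only genes, whose proteins start the mitochondrial route, did not move as a group: 2 rose, 2 fell and Bad did not pass. Of all genes 30.2% rose and 28.7% fell. Bcl2l11, the gene of BIM, read 7.00, 6.81 and 6.97 untreated and 6.24, 6.37 and 6.12 after BMP4 (-0.68 ± 0.10, adjusted p = 7.85e-05). Pmaip1, the gene of NOXA, read 5.99, 5.97 and 5.84 untreated and 5.54, 5.71 and 5.29 after BMP4. Its difference was -0.42 ± 0.11 (adjusted p = 0.00401). All untreated arrays detected it and 1 of 3 BMP4 arrays did. The untreated arrays alone met the filter, so its p-value is not independent of that filter. Bid, which caspase 8 cleaves to link the receptor arm to mitochondria, read 8.00, 8.00 and 7.90 untreated and 8.71, 8.54 and 8.76 after BMP4. Its rise of 0.70 ± 0.08 (adjusted p = 5.58e-06) left no overlap between the groups. Bbc3, the gene of PUMA, rose by 0.28 ± 0.09 (adjusted p = 0.0216). It no longer passed when untreated replicate 2 was left out (adjusted p = 0.0992), without BMP4 replicate 2 (adjusted p = 0.0895) and with scale normalization (adjusted p = 0.0607), all values lying between 0.00683 and 0.0992.

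Neither pore-forming gene passed: Bax was 10.76 ± 0.02 untreated and 10.71 ± 0.17 after BMP4 (-0.04 ± 0.12, adjusted p = 0.780), and Bak1 6.38 ± 0.21 and 6.36 ± 0.21 (-0.02 ± 0.13, adjusted p = 0.899). Among survival genes, Bcl2l1, which encodes BCL-XL, read 9.07, 9.00 and 9.05 untreated and 8.52, 8.10 and 8.21 after BMP4 (-0.76 ± 0.10, adjusted p = 2.46e-05). All 3 of its kept probes were lower, from -0.79 to -0.66. Mcl1, the other survival gene detected, was among the brightest members and differed by 0.09 ± 0.07 (adjusted p = 0.305). The apoptosome genes Apaf1 (0.12 ± 0.07, adjusted p = 0.149) and Casp9 (0.10 ± 0.08, adjusted p = 0.307) did not pass.

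**Figure D2:**
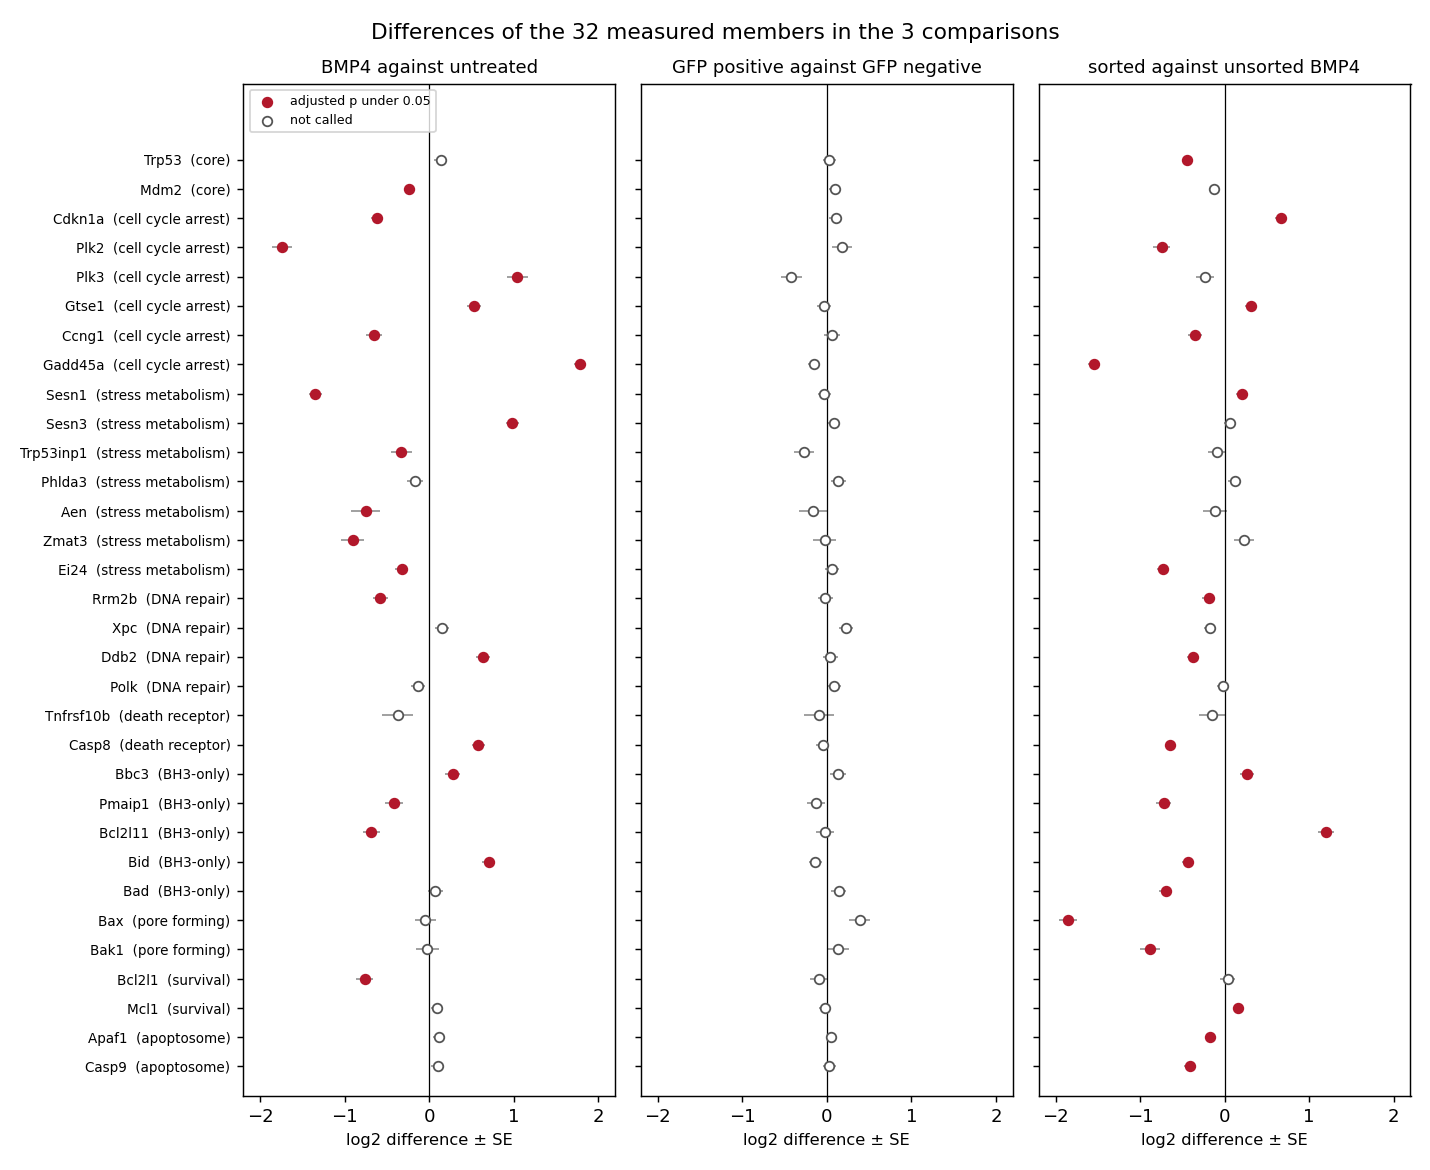
Log2 difference ± SE (horizontal axis) of the 32 members that passed the detection filter, ordered by role, in the 3 comparisons, with filled points for an adjusted p under 0.05. With BMP4, 8 points are filled to the right of 0 and 13 to the left, between the GFP fractions none is filled, and in sorted against unsorted BMP4 cells 6 and 15 are.

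Other genes of the same pathways were taken as lists. Of 31 other p53 pathway genes, 22 were tested, and 12 rose and 4 fell after BMP4, with a median of 0.23 beside 0.03 for all genes. Of all genes, 30.2% were higher and 28.7% lower. Ccng2, the cyclin G2 gene, rose by 1.35 ± 0.13, the checkpoint kinase gene Chek2 by 0.63 ± 0.09 and the nuclear body gene Pml by 0.59 ± 0.08. Chek1 is among the 12, although its brightest probe was below detection on all 6 arrays compared, and it gets no fold. Trp53inp2 fell by 0.60 and the repair gene Ercc5 by 0.23. The p53 relatives Trp63 and Trp73 and the targets Gdf15, Sfn and Tigar were not detected on any array.

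Of 28 other apoptosis genes, 17 were tested, and 5 rose and 7 fell, with a median of 0.01. The shares of all genes were 30.2% higher and 28.7% lower. Casp6, an executioner caspase gene, rose by 1.19 ± 0.07, the TNF receptor gene Tnfrsf1a by 0.91 ± 0.10, the BH3-only gene Bmf by 0.77 ± 0.15 and survivin (Birc5), which is also a mitotic gene, by 0.48 ± 0.07. Casp2, the initiator caspase of the PIDDosome, fell by 1.03, the survival gene Bcl2l2 by 0.59, cytochrome c (Cycs) by 0.44 and the mitochondrial protease gene Htra2 by 0.38.

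The second comparison asked whether Afp::GFP positive and negative cells, both given BMP4 and both sorted, differ in these genes. No member differed at an adjusted p under 0.05 in limma: 0 of 32 were called, beside 5.37% of all 10597 genes (3.06% higher and 2.31% lower), and 4 had an unadjusted p under 0.05. Afp itself, on which the sort rests, was higher in the positive cells by 2.23 ± 0.17. The members' differences ran from -0.42 to 0.39, with a median of 0.03, and for 6 of 32 the arrays did not overlap, as for 27.4% of all genes.

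Plk3 read 6.23, 6.34 and 6.40 in GFP positive and 6.63, 6.82 and 6.77 in GFP negative cells. The fractions did not overlap, and the difference of -0.42 ± 0.12 missed the threshold (adjusted p = 0.0698, 0.0207 to 0.220 over the alternatives). It passed with the compared groups alone (adjusted p = 0.0207), with array weights (adjusted p = 0.0243), without untreated replicate 1 (adjusted p = 0.0208) and without untreated replicate 2 (adjusted p = 0.0491). Bax read 9.25, 9.18 and 8.72 in the positive and 8.63, 8.62 and 8.74 in the negative cells, with positive replicate 3 inside the negative range (0.39 ± 0.12, adjusted p = 0.0992). Without that array it was called, at 0.55 (adjusted p = 0.00830), and the values spanned 0.00830 to 0.329. Xpc (0.23 ± 0.08, adjusted p = 0.146) and Trp53inp1 (-0.27 ± 0.12, adjusted p = 0.261) were the other members with an unadjusted p under 0.05.

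Tnfrsf10b read 7.36, 7.29 and 8.19 in the positive cells, so that replicate 3 stood apart, and 7.83, 7.59 and 7.70 in the negative cells. Without positive replicate 3 its difference was -0.38 (adjusted p = 0.0490), against -0.09 ± 0.18 with it (adjusted p = 0.838, 0.0490 to 0.975 over the alternatives). Trp53 (0.03 ± 0.08), Mdm2 (0.09 ± 0.07) and Cdkn1a (0.10 ± 0.07) did not pass. Cdkn1a read 11.41, 11.37 and 11.36 in the positive and 11.22, 11.32 and 11.29 in the negative cells, without overlap and without passing (adjusted p = 0.502). Of the other p53 pathway genes, Gadd45g was higher in the positive cells by 0.32 ± 0.07, and Dram1 was lower by a log2 difference of -0.35 ± 0.09. Chek1 was at least 1.14-fold lower in the positive cells, and 0 of 17 other apoptosis genes were called by limma.

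The third comparison set the mean of both sorted fractions against unsorted BMP4 cells. All 9 arrays had BMP4, and sorting and array signal level cannot be told apart, nor do the labels say that the sorted cells came from the same cultures. Of 32 members, 6 were higher and 15 lower in sorted cells, 18.8% and 46.9%, against 34.8% and 35.4% of all genes. The 65.6% called in either direction stand beside 70.1% of all genes. The 15 include Pmaip1, which no sorted array and 1 of 3 unsorted BMP4 arrays detected, so its fall cannot be measured. The arrays did not overlap for 17 of the 32, beside 59.5% of all genes. With scale normalization the median gene was lower by -0.14 in sorted cells, and 3 members were higher and 19 lower. Under that setting 2657 of all 10597 genes were higher and 4452 lower. Among members detected in both fractions and in unsorted BMP4 cells, Bax and Gadd45a had the largest falls and Bcl2l11 the largest rise.

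Bax was 8.86 ± 0.28 over the 6 sorted arrays and 10.71 ± 0.17 in unsorted BMP4 cells, so every sorted array lay more than 1 log2 unit below every unsorted one (-1.86 ± 0.11, adjusted p = 6.27e-09). Bak1, its partner in pore formation, read 5.52, 5.79 and 5.31 in GFP positive, 5.39, 5.38 and 5.46 in GFP negative and 6.32, 6.58 and 6.18 in unsorted BMP4 cells. It was detected on 1 of the 6 sorted arrays, so its fall is given as a bound, at least 1.53-fold (adjusted p = 1.54e-05). Each of these genes has a single probe, so neither can be checked against another. Bad, a BH3-only gene controlled by survival kinases, read 10.42, 10.42 and 10.64 unsorted, 10.00, 9.76 and 9.83 in GFP positive and 9.87, 9.69 and 9.62 in GFP negative cells (-0.70 ± 0.08, adjusted p = 4.13e-06).

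Several genes that BMP4 had moved did not keep that level in the sorted fractions. Gadd45a read 9.05, 9.12 and 8.98 in GFP positive and 9.21, 9.24 and 9.16 in GFP negative cells, near its untreated mean of 8.89 and far below the 10.68 of unsorted BMP4 cells (-1.55 ± 0.06, adjusted p = 2.62e-10). Casp8 read 7.91, 8.13 and 7.94 in GFP positive and 7.97, 8.09 and 8.07 in GFP negative cells, again around its untreated level (-0.64 ± 0.07, adjusted p = 1.51e-06). Bid was 8.16 ± 0.10 and 8.30 ± 0.05 in the fractions, between the untreated and the BMP4 level (-0.44 ± 0.07). Bcl2l11 read 7.22, 7.65 and 7.43 in GFP positive and 7.47, 7.46 and 7.44 in GFP negative cells, above both unsorted groups (1.20 ± 0.09, adjusted p = 7.05e-08). The second probe of Bcl2l11 gave 1.09.

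Other members stayed on the BMP4 side of untreated cells in both fractions. Plk2 read 6.29, 6.25 and 6.37 in GFP positive and 6.31, 6.22 and 5.83 in GFP negative cells, below the unsorted BMP4 arrays (-0.74 ± 0.10, adjusted p = 2.52e-05). Sesn1 was 8.56 ± 0.05 and 8.59 ± 0.12 in the fractions, Zmat3 8.99 ± 0.10 and 9.02 ± 0.09, Bcl2l1 8.26 ± 0.07 and 8.36 ± 0.12 and Sesn3 7.62 ± 0.06 and 7.54 ± 0.09. Each of these 4 genes lay on the BMP4 side of every untreated array. Without BMP4 replicate 1, the array nearest to untreated cells, Zmat3 was higher in sorted than in unsorted BMP4 cells by 0.43 (adjusted p = 0.000901), against 0.23 ± 0.12 with it (adjusted p = 0.104). Without GFP positive replicate 3, Tnfrsf10b was lower in sorted cells (-0.29, adjusted p = 0.00539), against -0.15 ± 0.15 with it (adjusted p = 0.412). Trp53 read 8.73, 8.64 and 8.63 in GFP positive and 8.71, 8.66 and 8.55 in GFP negative cells, below every unsorted array of either group (-0.44 ± 0.07 against BMP4, adjusted p = 5.68e-05).

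Ei24 read 9.92, 9.89 and 9.79 in GFP positive and 9.74, 9.85 and 9.82 in GFP negative cells (-0.73 ± 0.07, adjusted p = 6.59e-07), and its second probe gave -0.62. Pmaip1 was detected on no sorted array, where it read 4.58 to 4.89, and 1 of 3 unsorted BMP4 arrays detected it, so no fold is given. Casp9 (-0.41 ± 0.07), Ddb2 (-0.38 ± 0.07) and Ccng1 (-0.35 ± 0.08) were also lower in sorted cells and Gtse1 was higher (0.31 ± 0.07). The call of Gtse1 was lost with the mean of its kept probes (-0.076, adjusted p = 0.364). The smaller calls of Apaf1 (-0.17 ± 0.06), Rrm2b (-0.19 ± 0.08), Mcl1 (0.16 ± 0.06), Sesn1 (0.20 ± 0.07) and Bbc3 (0.26 ± 0.08) were each lost in at least 1 alternative. Leaving out BMP4 replicate 1 (adjusted p = 0.0837) or 2 (adjusted p = 0.0628) ended the call of Apaf1, leaving out BMP4 replicate 2 that of Sesn1 (adjusted p = 0.0705) and BMP4 replicate 3 that of Bbc3 (adjusted p = 0.0642). Mcl1 no longer passed without BMP4 replicate 1 or 3 or without replicate 2 or 3 of either fraction (adjusted p = 0.0541 to 0.113). Over all alternatives other than single probes, the adjusted p reached 0.475 for Mcl1, 0.871 for Sesn1 and 0.475 for Bbc3. The lowest differences there were 0.07 for Mcl1, 0.02 for Sesn1 and -0.15 for Bbc3. Rrm2b did not pass without untreated replicate 2, BMP4 replicate 1 or 3, GFP positive replicate 1 or 3 or GFP negative replicate 2 or 3 (adjusted p = 0.0503 to 0.150).

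Probes of 1 gene agreed less here than with BMP4. Among 16 members with more than 1 kept probe, the range between probes had a median of 0.28 in this comparison and 0.15 with BMP4. Cdkn1a, on its brightest probe, was higher in sorted cells by 0.66 ± 0.06 (adjusted p = 8.11e-07) and stood near its untreated level, but its other 2 probes gave 0.05 (adjusted p = 0.573) and -0.13 (adjusted p = 0.185). Bcl2l1 gave 0.04 ± 0.09 on its brightest probe, which did not pass (adjusted p = 0.732), and was lower on the other 2 (-0.85 and -1.25). Probes of Bbc3 (0.26 and -0.56) and Gtse1 (0.31 and -0.46) were called in opposite directions, which happened for 0 of the 16 with BMP4. Phlda3 was 0.12 on its brightest and 0.93 on its dimmer probe. Mdm2 read 10.80, 10.95 and 10.96 in GFP positive and 10.79, 10.81 and 10.82 in GFP negative cells. Its brightest probe gave -0.13 and was not called, while its second kept probe gave -0.38 (adjusted p = 9.49e-05). Signal level moved with this comparison, as given above, and its part in these values was not tested.

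**Figure D3:**
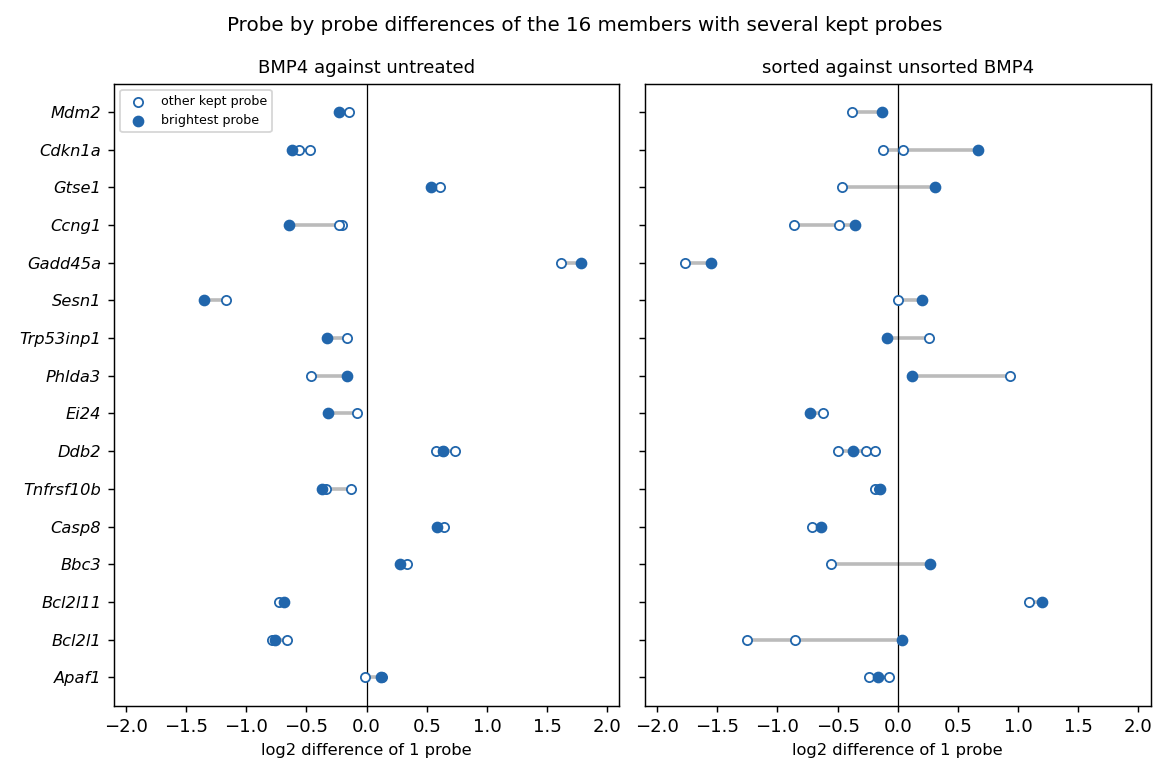
Log2 difference (horizontal axis) of each kept probe of the 16 members with more than 1, for BMP4 against untreated and for sorted against unsorted BMP4 cells, with the brightest probe filled and a grey line from lowest to highest. The probes of Cdkn1a and Bcl2l1 lie together on the left and apart on the right, while those of Gadd45a and Bcl2l11 lie together in both.

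Genes of other programs were called in this comparison too, in which 34.8% of all genes were higher and 35.4% lower. Of 10 immediate early and stress genes tested, 5 were higher in sorted cells, with Dusp1 up by 1.66 ± 0.10 and Atf3 by 1.21 ± 0.07, and 4 were lower, with Junb at -2.37. Of 8 visceral endoderm markers 7 were higher, with Afp at 2.45 ± 0.14, and of 7 XEN markers 6 were lower, with Gata6 at -1.28 ± 0.09, and 1 was higher. Of 5 parietal endoderm markers 4 were lower, with Sparc at -0.68 ± 0.08, and 1 was higher. Of 10 proliferation genes 4 were lower, with Aurkb at -0.89 ± 0.06, and 1 was higher, and their summed signal was 17329 to 18770 in the fractions against 19650 to 21452 in unsorted BMP4 cells. The summed signal of all 12 genes of the stress list was 2031 to 2184 in unsorted BMP4 cells and 2385 to 2638 in the fractions. Their part in the members' differences was not tested.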

How the data were processed

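Biotinylated cRNA of 12 samples, made with a MessageAmp kit per the labels' protocols, was read on MouseWG-6 V2.0 bead arrays from Illumina. The deposited scanner table was exported from BeadStudio 3.4.0 without normalization, per the file headers, and holds each probe's mean bead intensity and its detection value, a fraction (1 minus a p-value for signal above background). A second deposited table, for which the submitters' processing notes name lumi, was not used here, as nothing links its identifiers to the scanner table's.

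Intensity was background corrected from the detection p (offset 16), quantile normalized and log2 transformed (limma 3.58.1, R 4.3.3). The filter kept the 15448 of 45281 probes that 3 or more arrays detected at p under 0.01. Target names were brought to current symbols through RefSeq (13430 equal, 8112 by 1 synonym, 9948 kept as given), and Aen, Zmat3 and Xiap were found under older names. Each gene is represented by the brightest of its kept probes. A linear model of 4 group means was fitted to 12 arrays with moderated errors (limma, 8 residual and 5.02 prior degrees of freedom), and adjusted p-values are Benjamini-Hochberg values over 10597 genes. For a gene that a whole group failed to detect, the fold is a bound against the lowest detected value of each array, and no fold is given where the bound is under 1. Bak1 in sorted cells was bounded in the same way although 1 sorted array detected it, while Pmaip1 after BMP4 was not bounded.

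The members, gene lists and rules were chosen with earlier results of these data known. Arrays are listed for Trp53, Mdm2, Cdkn1a and for members among the 10 largest called differences of a comparison without overlap between groups, and at most 4 genes per direction are named from other lists, along with undetected ones. Some genes of these lists are counted but not reported by name here. The arrays of Tnfrsf10b and the genes named from the proliferation, stress and marker lists were picked with their values in view. The settings varied were another background correction, offset, normalization, filter, probe rule, threshold, sample set, array weights, a replicate block and leaving out each array, and, chosen after the data were seen, each kept probe on its own. No array was identical to another, and arrays of a group correlated at 0.994 to 0.997 across genes, which are not independent replicates.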

Additional observations from a re-analysis of the deposited data

How the results depend on the processing

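Of the members called with BMP4, 18 of 21 kept their call in each alternative that tested them, leaving aside the stricter thresholds and single probes, and of those called between sorted and unsorted cells 15 of 21. The number of members called ranged from 19 to 22, 0 to 2 and 18 to 23 in the 3 comparisons when each array was left out. Between the GFP fractions, where 0 were called, 2 were called (Plk3 and Bax) without background correction, with an offset of 50 and with array weights, and 1 (Plk3) with the compared groups alone. Without GFP positive replicate 3, 2 were called (Bax and Tnfrsf10b). Over all genes, that comparison called 287 with scale normalization, 912 with array weights and 236 at an adjusted p under 0.01, beside 569. It called 281 to 646 when each array was left out, with 281 and 347 without GFP positive replicates 1 and 2, and 298 and 338 without GFP negative replicates 2 and 3. At an absolute log2 difference of at least 1, 4 members and 1061 genes were called with BMP4, 41 genes between the fractions, and 3 members and 1195 genes between sorted and unsorted cells.

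The 9 values that changed sign while passing the threshold on at least 1 side were all from sorted against unsorted cells and from another choice of probe. Small differences that passed on neither side also changed sign in places, such as Bak1 with BMP4 (-0.134 to 0.0747) and Ccng1 between the fractions (-0.0891 to 0.105). With the mean of kept probes Bbc3 was -0.15, Bcl2l1 -0.69 and Gtse1 -0.076. On single probes, chosen after the data were seen, Bbc3 was -0.56, Bcl2l1 -0.85 and -1.25, Cdkn1a -0.13, Gtse1 -0.46 and Trp53inp1 0.26. The cause was not tested.

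With the replicate number as a block, 21, 0 and 20 members were called (Rrm2b lost its call between sorted and unsorted cells, adjusted p = 0.0558) and 6188, 502 and 7409 genes. Same-numbered arrays deviated with correlations of -0.05 to -0.01 between untreated and BMP4 cells and -0.01 to 0.15 between the fractions, so the numbers were not taken as pairs. Without one untreated array Aen was no longer tested, and with detection on at least 6 arrays neither Aen nor Pmaip1 was. The processed table was not run as an alternative, because its identifiers could not be linked to the probes. Dim signal limits Aen, Pmaip1 and Bak1, which lie near background in sorted cells.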

Other observations

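Between sorted and unsorted BMP4 cells, 10 of the 22 tested p53 pathway genes outside the members were higher and 8 lower. Of all genes, 34.8% were higher and 35.4% lower. The median of the list was 0.05 beside -0.02 for all genes. The largest rises were those of Trp53bp1 by 1.09 ± 0.06, the kinase genes Atm by 0.93 ± 0.07 and Atr by 0.77 ± 0.06, and the p53 inhibitor gene Mdm4 by 0.55 ± 0.10. The largest falls were those of the third sestrin gene Sesn2 (-1.75 ± 0.14), the tumour suppressor gene Cdkn2a (-1.24 ± 0.11), Pidd1 (-0.91 ± 0.11) and Ccng2 (-0.86 ± 0.11). Of 17 other apoptosis genes, 5 were higher and 5 lower, beside the same 34.8% and 35.4% of all genes. The death receptor adaptor gene Fadd was higher by 0.88 ± 0.09, the caspase 8 inhibitor gene Cflar by 0.62 ± 0.08 and Tnfrsf12a by 0.56 ± 0.08. The TNF receptor gene Tnfrsf1a was lower by a log2 difference of -1.76 ± 0.08, Bcl2l2 by one of -0.85 ± 0.09 and Birc5 by one of -0.66 ± 0.06. These values share the limits of that comparison, in which sorting and array signal level cannot be told apart.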
